A study of Homo sapiens with 6 samples.

Results

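Transcript levels of 42 genes of autophagy and mitophagy were compared between K562 cells exposed to calactin and untreated K562 cells. The genes were chosen by name, as the core machinery of both pathways. All 42 had at least 1 probe set carrying their symbol alone, among 19775 genes measured in all. K562 is an established human line from a chronic myeloid leukaemia, and it carries the BCR-ABL1 fusion. Calactin is a cardenolide, a plant steroid of the kind that inhibits the sodium pump. The 3 calactin arrays came from K562 cells treated at 0.15 mM, as the labels give the dose, and harvested at 12 h. That concentration is high for a cardenolide, and its unit could not be checked here. The 3 untreated arrays came from K562 cells kept for the same 12 h without drug. Both groups are the same single line with no further genetic change, and the labels do not mention a vehicle. The labels call the 3 samples of a group biological replicates but do not say whether they were separate cultures, so p-values measure the spread between these samples, which may be technical. Damage to DNA and changes to histones are what the series set out to study, by its title, and no purpose is stated for autophagy.

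Autophagy encloses part of the cytoplasm in a double membrane and delivers it to the lysosome. A kinase complex around ULK1 starts the process, and a lipid kinase complex around PIK3C3 and BECN1 then marks the membrane with the lipid PI3P. ATG proteins bring lipid and attach small ubiquitin-like proteins of the ATG8 family, such as LC3, to the growing membrane. Receptors such as the SQSTM1 product p62 tie cargo to those proteins, and in mitophagy the cargo is a mitochondrion. Erythroid cells, whose programme K562 shares in part, use mitophagy to clear their mitochondria as they mature.

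The values are linear probe set intensities, and precision is limited by having 3 arrays in each group. Array medians lay between 31.1 and 32.0 with calactin and between 33.0 and 34.3 for untreated cells, so every calactin array lay slightly below every untreated one. Replicate 3 of both groups stood apart in the poly-A spikes, control RNAs that are added before labelling. The mean log2 signal of the spikes was 6.38 on calactin array 3 and 6.81 on untreated array 3, against 9.79 to 10.1 on the other calactin arrays and 10.3 to 10.9 on the other untreated arrays. The poly-A spikes were therefore lower on the calactin array of each replicate number, and scaling to them moved the median log2 change of all genes to 0.51, against -0.06 on the deposited scale. Changes below are on the deposited scale unless a sentence says otherwise. By the labels' protocols 8 ug of total RNA was used, and RNA per cell was not measured. How the deposited values were scaled is not given, so the quantity they are relative to is not known. All 7 measured markers of K562, among them HBZ, HBE1, KLF1 and GATA1, lay above the median signal, with a summed intensity of 31612 to 40462 in calactin arrays and 33535 to 40168 in untreated arrays. Of these, TAL1 rose, GATA1, NFE2 and LMO2 fell, and KLF1, HBZ and HBE1 were not called. The 2 measured B cell markers and 3 monocyte markers all lay below the median signal. Of 4 T cell markers 3 lay below it, CD3D being the exception. EPCAM and KRT19 of 3 epithelial markers and COL1A1 and COL1A2 of 3 fibroblast markers lay above it. Summed epithelial signal lay between 4272 and 4713 with calactin and between 5282 and 5558 without, although none of those 3 genes was called. Summed T cell signal lay between 1727 and 1927 with calactin and between 2233 and 2644 without, nearly all of it from CD3D, which was called lower (log2 change -0.45). COL1A2 of the fibroblast markers was also called lower (-0.80). The part of these marker levels in the results was not tested.

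On the deposited scale, members of the machinery differed between calactin and untreated cells in both directions, with no single direction for the pathway. Of 42 members, 7 rose, 10 fell and 25 were not called in the reported fit, which ignores the replicate number. With the replicate number as a block, 9 were called higher and 13 lower. Poly-A spike scaling, fitted with the replicate number as a block, gave 26 higher and 3 lower instead. A gene was called at a limma p-value of at most 0.05 after Benjamini-Hochberg adjustment over all 19775 genes. The rises were those of RB1CC1, ATG12, ATG4D, MAP1LC3B, GABARAPL1, SQSTM1 and PINK1. The falls were those of ATG101, PIK3C3, WIPI1, ATG7, ATG10, ATG4C, GABARAPL2, CALCOCO2, BNIP3 and FUNDC1. Of all genes tested, 4.93% were called higher and 16.5% lower, against 16.7% and 23.8% of the members. All members but ULK2, 41 in number, lay above the median signal of all genes. Among all genes above that median, 9.1% were called higher and 29.3% lower, so the share of members called lower was not above that of bright genes. A change of at least 2-fold was seen in 2 of the 42 members that rose, ATG4D and SQSTM1, and 2 that fell, WIPI1 and ATG4C. Among all 19775 genes 105 rose and 870 fell by that much, which is 0.531% and 4.4%. The share of members with such a fall was thus close to that of all genes. The median change of the members was -0.13 on the log2 scale, beside -0.06 for all genes.

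**Figure D1:**
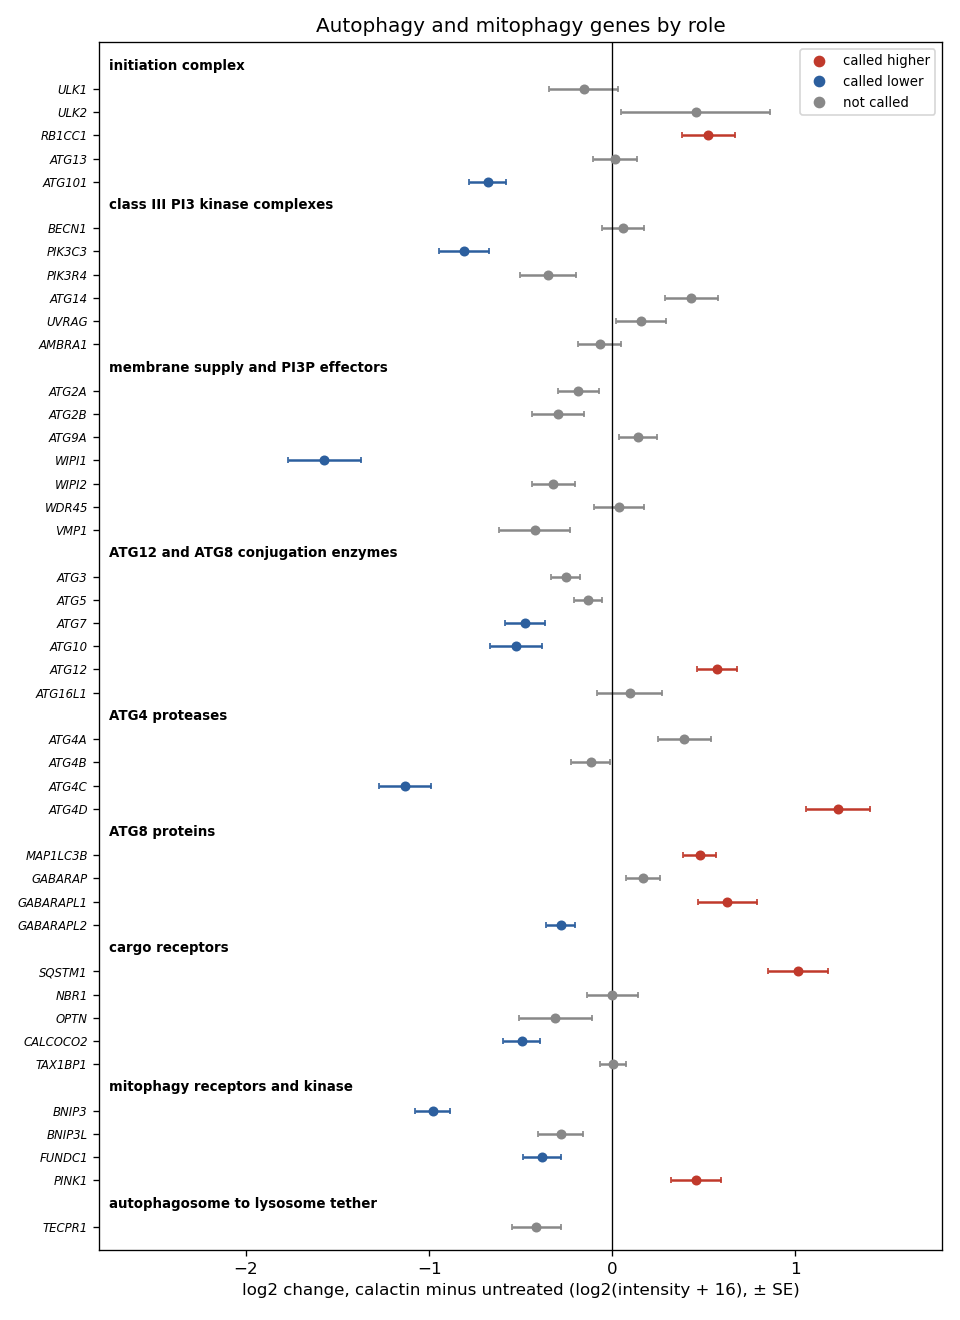
Log2 change of each of the 42 members, calactin minus untreated, on the log2(intensity + 16) scale with its standard error (n = 3 arrays each), grouped by role. Every role group but the single tether gene holds at least 1 called member, and called members run from -1.57 for WIPI1 to 1.23 for ATG4D.

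The calactin arrays all lay above the untreated arrays for 9 members and all below them for 15, which is 21.4% and 35.7% of the members. Over all genes these shares were 10.3% and 24.4%. They were not computed for genes above the median signal alone, the group that holds 41 of the members. All 17 called members had groups that did not overlap, and so had 7 of the 25 that were not called.

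**Figure D2:**
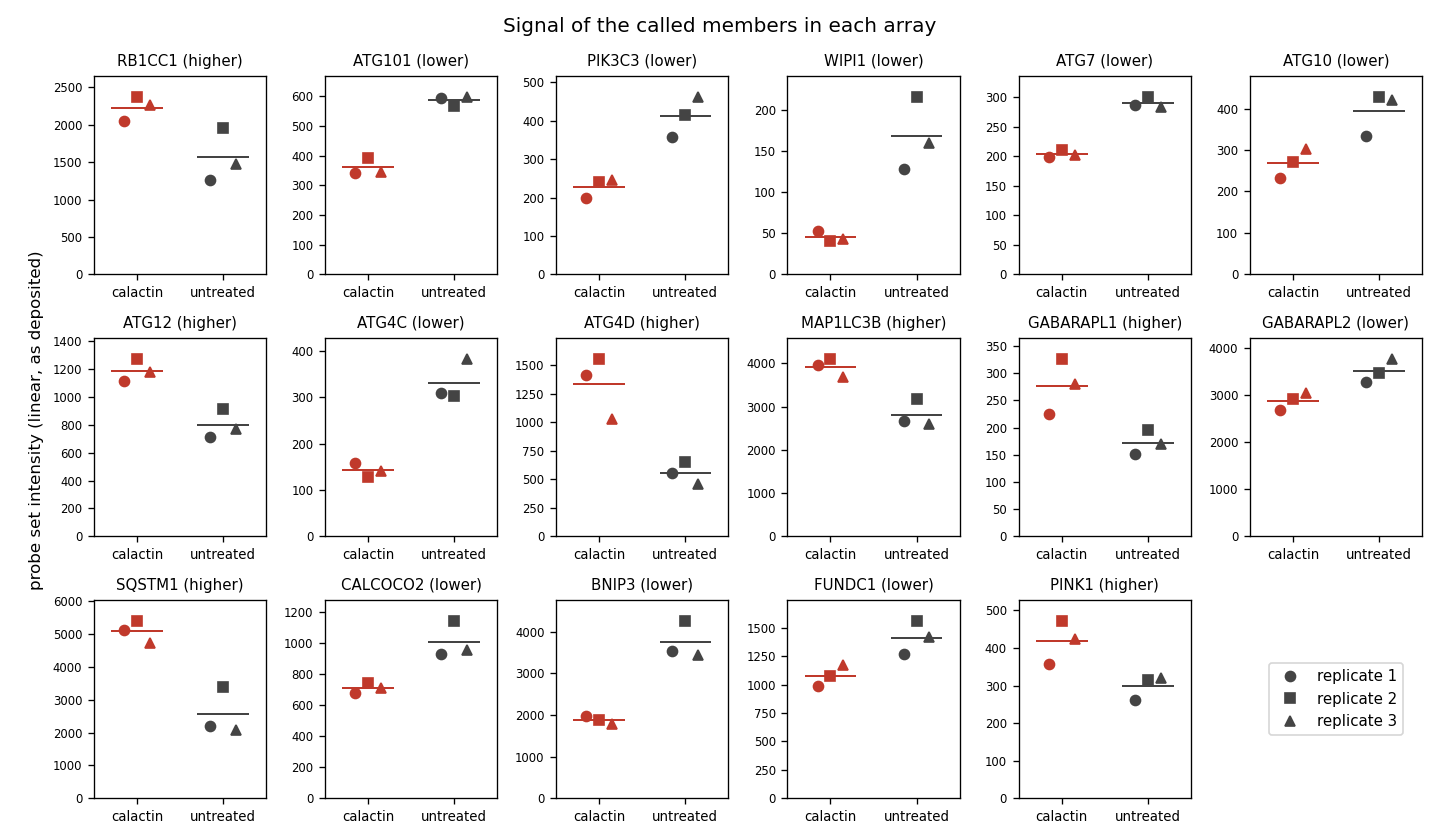
Deposited intensity of the 17 called members in each array, with calactin to the left of untreated, a line at the group mean and a symbol for each replicate number. The groups do not overlap in any panel, and SQSTM1 and RB1CC1 show 1 untreated array, replicate 2, well above the other untreated arrays.

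The ULK1 complex receives signals of starvation and starts autophagosome formation. RB1CC1, the large scaffold of that complex also called FIP200, had intensities of 2053, 2369 and 2265 in calactin arrays, against 1268, 1953 and 1479 in untreated arrays. All calactin arrays were thus higher, with untreated replicate 2 the closest to them. RB1CC1 rose 1.44-fold (log2 change 0.52 ± 0.15 SE, adjusted p = 0.0319). The RB1CC1 call was held in 10 of 18 alternative analyses, and leaving out any single array other than untreated array 2 ended it. The second RB1CC1 probe set was not called, at 0.21 ± 0.13 with overlapping groups (adjusted p = 0.427), and the mean of both ended the call (0.37, adjusted p = 0.107). ATG101, which stabilises ATG13 in the complex, had intensities of 341.8, 393.3 and 344.4 with calactin, against 592.7, 567.7 and 596.2 in untreated arrays. It fell 1.60-fold (log2 change -0.68 ± 0.10, adjusted p = 0.00145), a call lost under hybridisation spike scaling and under poly-A spike scaling, where the change was -0.11. Of the 3 members of the complex that were not called, ATG13, the regulatory subunit, was at 381.6 ± 34.9 with calactin and 378.4 ± 38.9 in untreated arrays (mean ± SD, n = 3 each). ULK2, the relative of the kinase ULK1, had the largest uncalled change, 0.45 ± 0.41. Its intensities were 42.1, 30.7 and 2.37 with calactin and 15.1, 3.20 and 16.4 without, all of them dim and overlapping. ULK1 itself was at 75.3 ± 16.4 with calactin and 85.4 ± 14.1 in untreated arrays, and its log2 change of -0.16 ± 0.19 did not pass the test.

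The lipid kinase complexes showed 1 called member of 6, the catalytic subunit itself. PIK3C3, also named VPS34, had intensities of 199.2, 239.8 and 245.0 with calactin, against 358.7, 416.3 and 461.3 in untreated arrays. Every calactin array lay far below every untreated one, and PIK3C3 fell 1.75-fold (log2 change -0.81 ± 0.13, adjusted p = 0.00281). Of its 7 probe sets, 2 were called lower and 0 higher, and the call was lost with the mean of all 7, at -0.31, and under poly-A spike scaling, at -0.24. The probe set that stands for PIK3C3 had a mean signal of 320.0, and the others lay between 4.76 and 40.9. BECN1, the scaffold that recruits regulators to PIK3C3, was not called, at 866.8, 1012 and 1173 with calactin against 917.7, 994.6 and 999.7 without (log2 change 0.06 ± 0.12). ATG14, which directs the complex to autophagosomes, had 158.0, 202.4 and 180.1 with calactin against 115.9, 129.7 and 142.1 in untreated arrays. The ATG14 groups did not overlap, but its change of 0.43 ± 0.15 missed the threshold (adjusted p = 0.0701) and passed it with the replicate number as a block (adjusted p = 0.0338). PIK3R4, UVRAG and AMBRA1, a regulatory kinase-like subunit, a partner of BECN1 in a second complex and a regulator of BECN1, had changes of -0.35, 0.16 and -0.07, none of them called.

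Among genes that supply membrane or read PI3P, WIPI1 had the largest change of any member. WIPI1 encodes a propeller protein that binds PI3P on the forming membrane. Its intensities were 52.3, 40.2 and 42.6 with calactin, against 128.2, 216.1 and 160.7 in untreated arrays. WIPI1 fell 2.97-fold (log2 change -1.57 ± 0.20, adjusted p = 7.29e-04), and it was called in all 18 alternatives, at -0.9985 under poly-A spike scaling. The calactin arrays lay below 73.4, the median of the mean signals of all genes, and the pseudocount understates the fold change of such dim values. Both of its probe sets were called lower, the other one with a log2 change of -1.58 ± 0.15. The promoter of WIPI1, from 250 bases before to 50 bases after its start in RefSeq, lies at chr17:68457447-68457746 of GRCh38.p14 on the minus strand and is shown because the gene had the largest fall. None of the motifs searched below was found in it, so it has no capitals:
WIPI1: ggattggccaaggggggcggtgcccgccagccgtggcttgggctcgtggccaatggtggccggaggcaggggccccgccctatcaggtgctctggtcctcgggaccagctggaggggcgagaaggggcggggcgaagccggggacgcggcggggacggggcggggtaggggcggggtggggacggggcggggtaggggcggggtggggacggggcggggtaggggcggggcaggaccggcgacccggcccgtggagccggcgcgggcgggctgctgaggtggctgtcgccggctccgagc

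The other 6 genes of that group were not called. WIPI2, the relative of WIPI1 that recruits ATG16L1, was one of them. It had intensities of 818.4, 1038 and 970.3 with calactin, against 1074, 1330 and 1138 in untreated arrays. These groups stood apart with a log2 change of -0.32 ± 0.12, which missed the threshold (adjusted p = 0.0923) and passed it with the replicate number as a block (adjusted p = 0.00899). VMP1, an endoplasmic reticulum protein that moves lipids between membrane leaflets, had the largest uncalled change, -0.42 ± 0.20, with values of 251.8, 292.8 and 283.6 with calactin against 396.3, 270.8 and 489.6 without. These overlapped, and the change passed the threshold at -0.65 without untreated replicate 2. Another 3 probe sets carry both VMP1 and MIR21, which overlap in the genome, and went different ways, 1 called lower with a log2 change of -1.62 ± 0.40, 1 called higher with 0.37 ± 0.08 and 1 not called. The one called higher was the brightest, with a mean signal of 1861. Mean signal was 267.0 at the one called lower, 4.66 at the uncalled one and 330.8 at the probe set of VMP1 alone. VMP1 is thus uncertain. The lipid transfer proteins ATG2A and ATG2B, the scramblase ATG9A and WDR45, a further PI3P reader, had changes between -0.30 and 0.14.

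ATG7, ATG10 and ATG3 are the enzymes that attach ATG12 to ATG5 and ATG8 proteins to lipid. ATG7, the activating enzyme for both reactions, had intensities of 199.6, 210.8 and 203.0 with calactin, against 287.6, 300.03 and 284.1 in untreated arrays. These were among the tightest groups of any member, and ATG7 fell 1.39-fold (log2 change -0.48 ± 0.11, adjusted p = 0.0129). Of its 4 probe sets, 3 were called lower. The call was lost under quantile normalization and hybridisation spike scaling, and the sign turned under poly-A spike scaling, at 0.10, and at 0.11 when probe sets whose name marks shared sequence were used last. The ATG7 probe set used in that last case was dim, with a mean signal of 51.2 against 247.5, and its standard error was 0.35. ATG10, which passes ATG12 to ATG5, had 232.6, 272.1 and 303.6 with calactin, against 335.0, 427.3 and 421.5 in untreated arrays. It fell 1.44-fold (log2 change -0.52 ± 0.14, adjusted p = 0.0293), with 3 of 4 probe sets called lower, and dropping calactin array 1 or 2, or untreated array 2 or 3, ended the ATG10 call. It was also lost under quantile normalization (-0.33, adjusted p = 0.128) and hybridisation spike scaling (-0.42, adjusted p = 0.355), and under poly-A spike scaling the ATG10 change was 0.05.

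ATG12 itself went the other way. This ubiquitin-like protein had intensities of 1113, 1270 and 1177 with calactin, against 710.2, 912.6 and 768.7 in untreated arrays. It rose 1.48-fold (log2 change 0.57 ± 0.11, adjusted p = 0.00570), with 2 of 3 probe sets called higher. ATG3, which passes ATG8 proteins to lipid, had 1681, 1789 and 1860.1 with calactin, against 2011, 2072 and 2291 without. The ATG3 groups did not overlap, and its change of -0.25 ± 0.08 just missed the threshold (adjusted p = 0.0532), passing it with the replicate number as a block (adjusted p = 0.0124). Of the other members here, ATG5, the acceptor of ATG12, had a change of -0.13 ± 0.08 at the probe set that stands for it. A second, dimmer ATG5 probe set was called lower, at -0.83 ± 0.13, and the third was not. ATG16L1, which places the ATG12 conjugate on the membrane, was at 0.09 ± 0.18.

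The ATG4 proteases trim ATG8 proteins before they are attached and release them afterwards. Of the 4, the 2 called ones moved apart. ATG4D had intensities of 1418, 1554 and 1033 with calactin, against 558.9, 652.5 and 457.9 in untreated arrays. Every calactin array was higher, and ATG4D rose 2.35-fold (log2 change 1.23 ± 0.17, adjusted p = 0.00118), the largest rise of any member. ATG4C had 158.6, 127.6 and 140.6 with calactin, against 309.1, 302.1 and 382.3 in untreated arrays. ATG4C fell 2.19-fold (log2 change -1.13 ± 0.14, adjusted p = 6.66e-04). Both were called in all 18 alternatives, ATG4C at -0.56 under poly-A spike scaling, and each has a single probe set. ATG4B, the family member known for the broadest activity on ATG8 proteins, was not called, at 537.7 ± 66.0 with calactin and 582.2 ± 11.6 in untreated arrays. ATG4A had a change of 0.39 ± 0.14 with groups that did not overlap, at 335.4, 429.3 and 361.3 with calactin against 235.4, 308.9 and 302.9 without (adjusted p = 0.0940, and 0.0172 with the replicate number as a block).

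**Figure D3:**
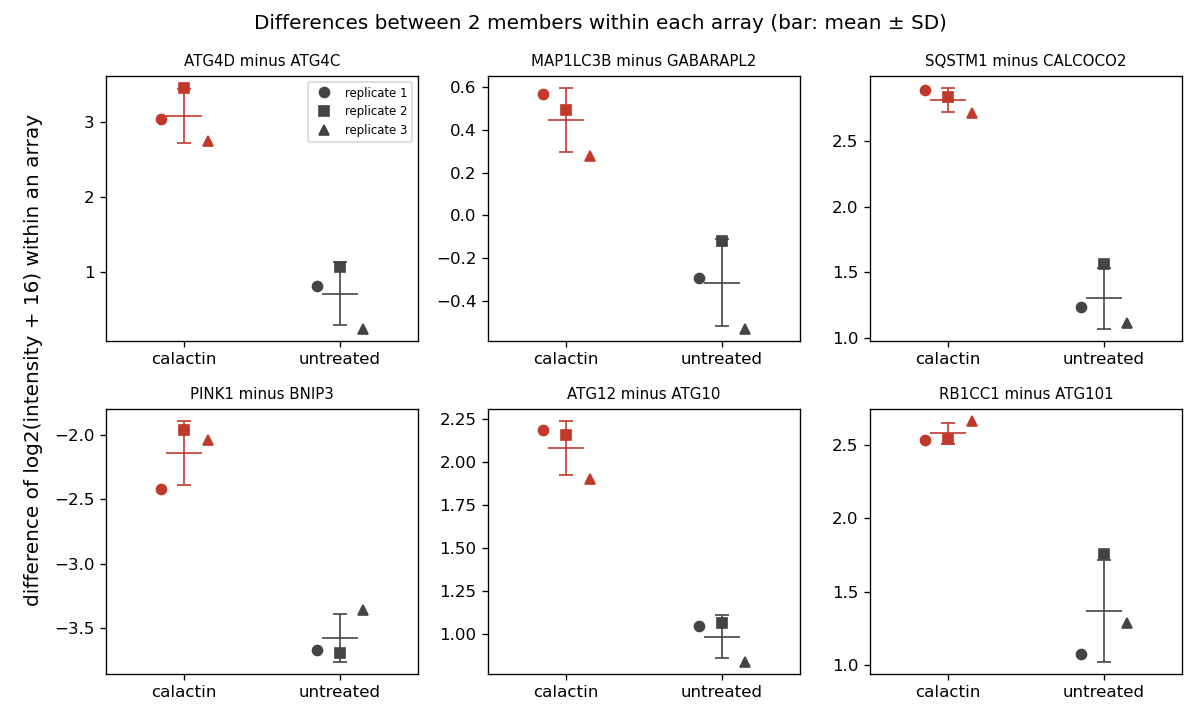
Difference between the log2(intensity + 16) values of 2 members within each array, with calactin to the left of untreated and a bar for mean ± SD (n = 3 each). Each pair is a member called higher minus a member called lower, both with groups that did not overlap. By that choice the calactin arrays lie above all untreated arrays in each of the 6 pairs. The gap between group means is 0.76 to 2.36.

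A shift of all log2 values of an array, as in median centring or spike scaling, cancels in the difference between 2 genes of that array. Quantile normalization is not such a shift and does not cancel. The pairs here were chosen after their values were seen and are given as descriptions. ATG4D minus ATG4C was 3.04, 3.45 and 2.74 on the log2 scale with calactin, against 0.82, 1.07 and 0.25 in untreated arrays, a gap of 2.36 between the means. PINK1 minus BNIP3 differed by 1.44 between the group means and SQSTM1 minus CALCOCO2 by 1.51. RB1CC1 minus ATG101 differed by 1.21, ATG12 minus ATG10 by 1.09 and MAP1LC3B minus GABARAPL2 by 0.76. Only the gap is read here, since levels of different probe sets are not comparable.

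ATG8 proteins coat the autophagosome and hold its cargo. MAP1LC3B, which encodes the LC3 protein used as a marker of autophagosomes, had intensities of 3966, 4095 and 3690.1 with calactin, against 2669, 3183 and 2598 in untreated arrays. It rose 1.39-fold (log2 change 0.48 ± 0.09, adjusted p = 0.00516). Its call was lost under hybridisation spike scaling, although the limma change there was larger, at 0.58 (adjusted p = 0.0862). Under that scaling 1950 of all genes were called, against 4239 on the deposited scale. The second MAP1LC3B probe set was not called, at 0.30 ± 0.11 with overlapping groups (adjusted p = 0.138). GABARAPL1 had 225.6, 325.7 and 280.3 with calactin, against 152.1, 195.8 and 169.8 in untreated arrays. It rose 1.55-fold (log2 change 0.63 ± 0.16, adjusted p = 0.0230), and dropping calactin array 2 or 3, or untreated array 1 or 3, ended the GABARAPL1 call. Its other probe set was not called, at 0.41 ± 0.21 with overlapping groups (adjusted p = 0.284), and the mean of both missed the threshold (adjusted p = 0.0669). A further probe set that carries both GABARAPL1 and its near-identical copy GABARAPL3 was higher by 0.61 ± 0.15, and that probe set cannot tell the copies apart. GABARAPL2, also named GATE-16, had 2669, 2910 and 3037 with calactin, against 3273, 3463 and 3755 in untreated arrays. It fell 1.22-fold (log2 change -0.28 ± 0.08, adjusted p = 0.0336). The GABARAPL2 call was the least stable one, held in 7 of 18 alternatives, and under poly-A spike scaling GABARAPL2 was called in the opposite direction (0.29, adjusted p = 0.0486, beside an all-gene median of 0.51 there). Dropping any single array other than untreated array 1 ended it. GABARAP, the founding member of its branch, was at 3413, 3464 and 2835 with calactin against 3097, 2775 and 2752 without, a change of 0.17 ± 0.09 that was not called.

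The promoters of MAP1LC3B (chr16:87392086-87392385, plus strand) and GABARAPL1 (chr12:10212627-10212926, plus strand) are shown as the ATG8 genes that rose. Capitals mark a match to TGACNNNGC, the core of the antioxidant response element, in MAP1LC3B, starting 46 bases before the gene's start, and to TGACGTCA, the cAMP response element, in GABARAPL1, starting 30 bases before it:
MAP1LC3B: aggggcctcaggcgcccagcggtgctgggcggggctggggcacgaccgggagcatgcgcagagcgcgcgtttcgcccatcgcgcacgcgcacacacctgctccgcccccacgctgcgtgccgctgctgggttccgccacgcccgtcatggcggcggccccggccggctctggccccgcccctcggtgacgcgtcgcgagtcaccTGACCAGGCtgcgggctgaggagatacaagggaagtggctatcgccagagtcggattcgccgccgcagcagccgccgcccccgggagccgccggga
GABARAPL1: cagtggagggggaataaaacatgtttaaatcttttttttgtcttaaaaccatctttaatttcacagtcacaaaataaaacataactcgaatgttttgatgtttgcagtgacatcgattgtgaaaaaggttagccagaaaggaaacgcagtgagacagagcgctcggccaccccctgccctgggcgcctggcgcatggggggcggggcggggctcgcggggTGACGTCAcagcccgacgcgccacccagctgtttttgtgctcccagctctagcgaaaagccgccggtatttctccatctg

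TGACGTCA stood in 1.85% of all 35116 promoters of that length in the table, and TGACNNNGC in 13.3%. The RefSeq table held 37 of the 42 members and 14 of the 17 called ones, those of RB1CC1, ATG4D and PINK1 being without an entry. Motifs were searched on both strands. TGACNNNGC was also found in ATG101, CALCOCO2 and TECPR1. The E-box CACGTG stood in 3 members, ATG14, ATG3 and BNIP3, and in 7.26% of all promoters. Its longer form TCACGTGA, bound by the lysosomal factor TFEB and overlapping CACGTG, stood in ATG3 and in 0.98% of all promoters. GTAAACA, a forkhead motif, stood in CALCOCO2 and in 3.42% of all. In no member promoter was there a match to TGANTCA of AP-1 (7.71% of all), TGATGNAA of ATF4 with C/EBP (3.62%) or GCGTGGGCG of EGR1 (0.795%). A match is a string of letters in this window and not a shown binding site.

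Cargo receptors bind ubiquitin and ATG8 proteins at once. SQSTM1, which encodes p62, rose 2.02-fold (log2 change 1.01 ± 0.16, adjusted p = 0.00243). Its intensities were 5116, 5384 and 4720 with calactin, against 2211, 3389 and 2088 in untreated arrays. Untreated replicate 2 stood above the other untreated arrays but below every calactin array. Of 5 SQSTM1 probe sets, 2 were called higher, with changes of 1.01 and 1.10, and 3 were not called, between -0.27 and -0.02. The call was therefore lost with the mean of the 5, at 0.32, and, at -0.02, with the probe sets marked as shared used last. Mean signal was 3818 at the probe set that stands for SQSTM1, 74.2 at the other called one and 65.7, 21.0 and 176.1 at the uncalled ones. CALCOCO2, also named NDP52, a receptor for bacteria and mitochondria, had 677.0, 742.2 and 707.2 with calactin, against 931.6, 1140 and 955.8 in untreated arrays. It fell 1.41-fold (log2 change -0.50 ± 0.10, adjusted p = 0.00789) at 1 of 4 probe sets, with the mean of the 4 at -0.11. The uncalled CALCOCO2 probe sets were dimmer, with mean signals of 18.5, 119.7 and 107.0 against 858.9. The CALCOCO2 sign turned under poly-A spike scaling, at 0.08, and its call was lost under hybridisation spike scaling and with shared probe sets used last. TAX1BP1, a receptor for protein aggregates, had 2211, 2262 and 2365 with calactin against 2197, 2204 and 2421 without, and NBR1, a relative of p62, differed as little, with changes of 0.004 and 0.001. OPTN, optineurin, a receptor in damage-induced mitophagy, was at -0.31 ± 0.20 with overlapping values of 169.0, 259.5 and 233.7 in calactin arrays against 227.8, 352.0 and 255.0 in untreated arrays.

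**Figure D4:**
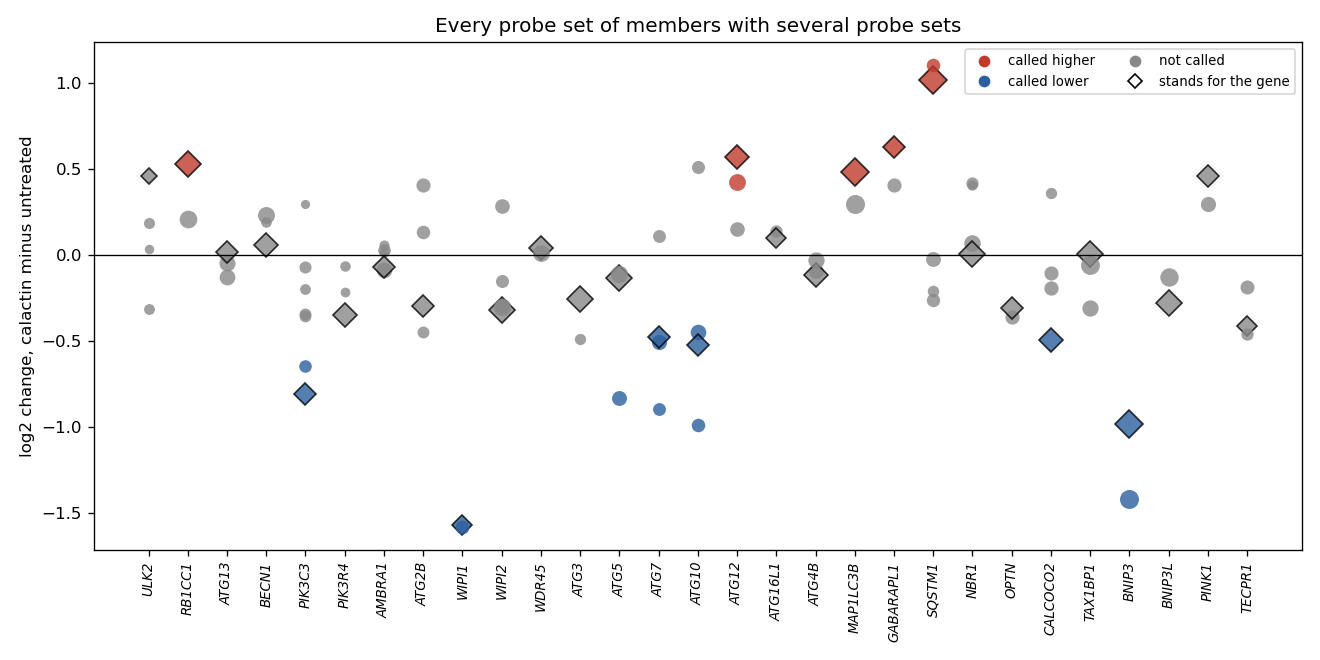
Log2 change, calactin minus untreated, of every probe set of the 29 members with several probe sets, each tested on its own over 54613 probe sets; larger symbols have a higher mean signal and an outlined diamond stands for the gene. WIPI1 and BNIP3 have all their probe sets called lower, while SQSTM1 has 2 called higher beside 3 near or below 0.

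With every probe set tested on its own, 8 of the 105 member probe sets were called higher and 17 lower, against 3.68% and 10.3% of all probe sets. Shares among bright probe sets alone were not computed, so no excess is read from these counts. Among the 105 member probe sets, which carry a single symbol, no member had probe sets called in opposite directions. The probe sets that VMP1 shares with MIR21 did. PINK1 and GABARAPL2 were not called in that test, at adjusted p = 0.0542 and 0.0508.

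Among mitophagy genes was the member with the smallest adjusted p. BNIP3, a mitochondrial outer membrane receptor that binds LC3 and is induced by the hypoxia factor HIF-1, had intensities of 1987, 1872 and 1785 with calactin, against 3527, 4253 and 3449 in untreated arrays. The highest calactin array was far below the lowest untreated one, and BNIP3 fell 1.97-fold (log2 change -0.98 ± 0.09, adjusted p = 2.04e-04). Its second probe set, at 1250 ± 63 with calactin and 3377 ± 328 in untreated arrays, fell further, by 1.42 ± 0.09. The BNIP3 call was held in all 18 alternatives, with a change of -0.41 under poly-A spike scaling. BNIP3L, the relative known as NIX that clears mitochondria from maturing red cells, had 2072, 2092 and 2151 with calactin against 2250, 3185 and 2348 without. The BNIP3L groups did not overlap, but its change of -0.28 ± 0.12 was not called (adjusted p = 0.163). FUNDC1, a receptor of hypoxic mitophagy, had 984.2, 1079 and 1172 with calactin, against 1268, 1557 and 1414 in untreated arrays. It fell 1.30-fold (log2 change -0.38 ± 0.10, adjusted p = 0.0284), a call held in 8 of 18 alternatives. Dropping calactin array 1 or 2, or untreated array 2 or 3, ended it, as did quantile normalization, median centring and hybridisation spike scaling, and the sign turned under poly-A spike scaling, at 0.19. PINK1, the kinase that marks damaged mitochondria, had 357.9, 470.8 and 423.0 with calactin, against 262.1, 313.6 and 321.0 in untreated arrays. It rose 1.37-fold (log2 change 0.46 ± 0.14, adjusted p = 0.0429). The PINK1 call was held in 10 of 18 alternatives and ended under hybridisation spike scaling and with any single array dropped other than calactin array 1. Its change kept its sign in all 18, between 0.37 and 1.03. A second PINK1 probe set was not called, at 0.30 ± 0.12 (adjusted p = 0.163), though its groups did not overlap.

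The promoter of BNIP3 (chr10:131981874-131982173, minus strand) is shown because its gene fell at both probe sets. Capitals mark the E-box CACGTG, which starts 134 bases before the gene's start:
BNIP3: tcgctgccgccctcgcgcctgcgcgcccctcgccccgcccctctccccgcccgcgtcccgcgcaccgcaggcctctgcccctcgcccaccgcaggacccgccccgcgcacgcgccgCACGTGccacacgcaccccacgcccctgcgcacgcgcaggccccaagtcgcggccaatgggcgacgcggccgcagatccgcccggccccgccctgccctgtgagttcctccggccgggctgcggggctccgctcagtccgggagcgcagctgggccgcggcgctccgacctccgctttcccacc

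TECPR1, a tether between autophagosomes and lysosomes, had intensities of 98.9, 92.4 and 107.5 with calactin, against 135.5, 134.6 and 143.4 in untreated arrays. These groups did not overlap, with a log2 change of -0.41 ± 0.13 that missed the threshold (adjusted p = 0.0603) and passed it with the replicate number as a block (adjusted p = 0.0455). Over the 25 members not called, changes ran from -0.42 to 0.45, and 14 lay within 0.2 of 0 on the log2 scale. The median standard error of these 25 was 0.13, so small changes in them could not be detected here.

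**Figure D5:**
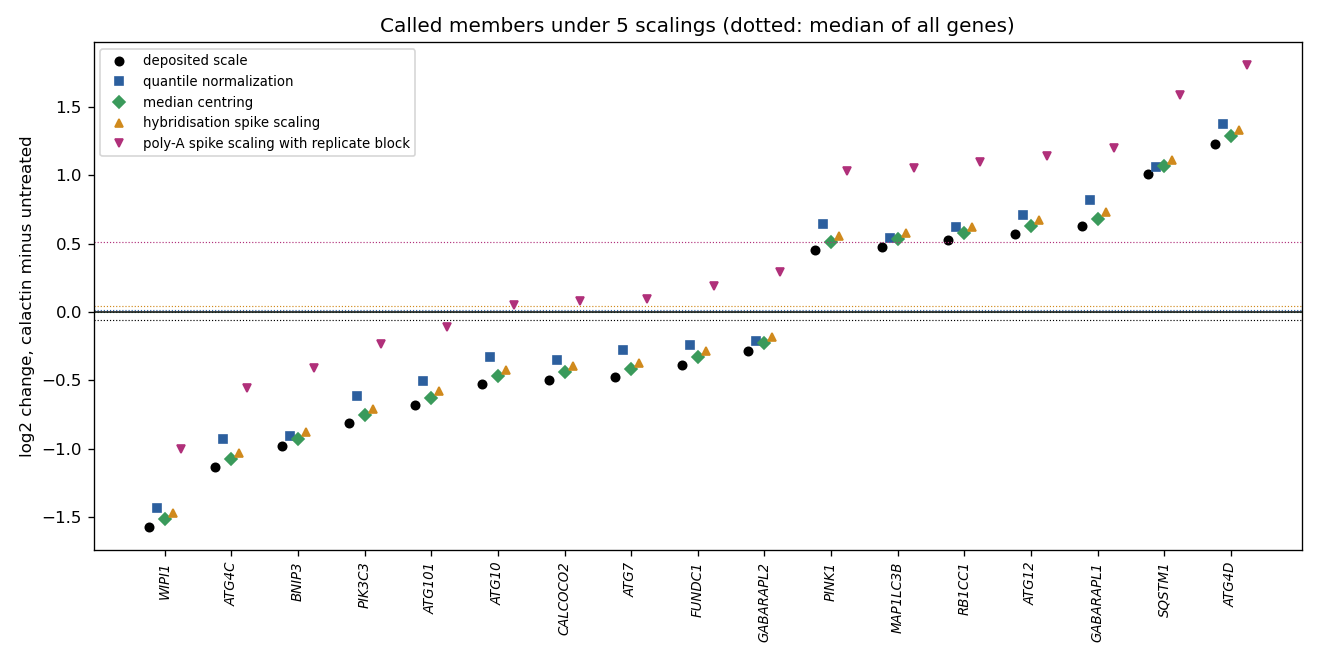
Log2 change of the 17 called members, calactin minus untreated, on the deposited scale and under 4 other scalings, with a dotted line at the median of all genes for each. Under every scaling WIPI1, ATG4C, BNIP3, ATG101 and PIK3C3 lie below 0. ATG4D, SQSTM1, RB1CC1, ATG12, MAP1LC3B, GABARAPL1 and PINK1 lie above 0 under every scaling. ATG7, ATG10, GABARAPL2, CALCOCO2 and FUNDC1, lower on the deposited scale, lie above 0 under poly-A spike scaling.

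How many members rose or fell depended on the scale. On the deposited scale 7 were called higher and 10 lower, under quantile normalization 9 and 6, and under hybridisation spike scaling 5 and 4. Poly-A spike scaling, fitted with the replicate number as a block, gave 26 higher and 3 lower, and 60.2% of all genes were called higher there. Falls made up 77.0% of the calls over all genes on the deposited scale, 59.1% after quantile normalization, 71.4% under hybridisation spike scaling and 8.27% under poly-A spike scaling. The 3 members that stayed lower under poly-A spike scaling were WIPI1, ATG4C and BNIP3. Without replicate 3 of both groups, 4 members were called, WIPI1, ATG4C, BNIP3 and ATG4D, and the other 13 kept their sign but not their call in that comparison of 2 against 2 arrays.

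A further 65 genes around the pathway were listed, of which 63 were measured: 6 rose, 8 fell and 49 were not called, with a median of 0.005. That is 9.52% higher and 12.7% lower, beside 4.93% and 16.5% of all genes. Of the 63, 52 lay above the median signal. Among all genes above it, 9.1% were called higher and 29.3% lower. With the replicate number as a block, 11 of the 63 were called higher and 13 lower. Genes of mTORC1, the growth kinase that restrains autophagy, and of AMPK, the energy sensor that promotes it, held 3 rises and 2 falls among 19. TSC1, which restrains mTORC1, rose by 0.90 ± 0.11 on the log2 scale, with signals of 480.8, 487.8 and 458.0 with calactin against 266.4, 221.8 and 257.6 without. SESN2, a sestrin that links amino acid shortage to mTORC1, rose by 0.44 ± 0.10, a call that ended when calactin array 3 or untreated array 1 or 3 was dropped. MTOR, the kinase itself, fell by 0.51 ± 0.10, and PRKAG2, a regulatory subunit of AMPK with a dim probe set, fell by 0.95 ± 0.16. Under poly-A spike scaling the MTOR change was 0.06.

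The factors that drive autophagy genes held 1 rise among 6 measured. That is 16.7%, beside 4.93% of all genes and 9.1% of those above the median signal. FOXO3, a forkhead factor restrained by growth signals, rose by 0.62 ± 0.15, and dropping calactin array 2 or 3, or untreated array 3, ended its call. NRBF2, a subunit of the PIK3C3 complex with ATG14, had the largest change of these genes. It had signals of 344.2, 436.5 and 454.1 with calactin against 851.9, 1406 and 943.1 in untreated arrays, and fell by 1.32 ± 0.19. Of 14 genes that fuse autophagosomes with lysosomes, all above the median signal, 2 fell and 0 rose. The share that fell was 14.3%, beside 16.5% of all genes and 29.3% of those above that median. One that fell was PLEKHM1, an adaptor for that fusion, at -0.52 ± 0.13. Its call ended when any calactin array or untreated array 3 was dropped, with 0.06 under poly-A spike scaling.

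Other selective autophagy genes again went both ways, with 2 rises and 3 falls among 12 measured, or 16.7% and 25%. Of all genes 4.93% rose and 16.5% fell, and of those above the median signal 9.1% and 29.3%. SEC62 and CCPG1, receptors for endoplasmic reticulum, rose by 0.47 ± 0.09 and 0.44 ± 0.11. TEX264, another such receptor, fell by 0.45 ± 0.11, with 0.12 under poly-A spike scaling. BCL2L13, a mitophagy receptor, fell by 0.70 ± 0.17, and USP30, a deubiquitinase that opposes mitophagy, by 0.64 ± 0.13. For SEC62 the change was -0.05 when shared probe sets were used last. Single arrays mattered for 3 of these calls: that of CCPG1 ended with calactin array 2 or 3 or untreated array 1 or 3 dropped, that of TEX264 with any array dropped other than untreated array 2, and that of BCL2L13 with calactin array 1 or 2 or untreated array 3 dropped.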

How the data were processed

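RNA of 3 calactin and 3 untreated K562 samples was hybridised to 1-colour Affymetrix arrays, using 8 ug of total RNA per the labels' protocols. The authors deposited 1 linear intensity for each probe set on each array. How probes were summarised, corrected for background and scaled is not given in the sources used here. Array medians differed slightly, so the deposited probe set values were not set to a common median. Whether they were scaled between arrays in another way is not known. Whether probes were normalized before they were summarised is not known.

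Of 54675 probe sets, 62 were controls, 41091 carried 1 gene symbol, 1801 several and 11721 none in the platform annotation. A current symbol existed for 41037, and 0 differed from the annotation. Each of 19775 genes was represented by its probe set of highest mean log2(intensity + 16). Fold changes are on that log2 scale and understate the change of dim genes. limma 3.58.1 in R 4.3.3 (lmFit, eBayes with a variance trend) compared calactin with untreated arrays, two-sided, with Benjamini-Hochberg adjustment over all genes and a threshold of 0.05. The script was checked on simulated data. Plots used matplotlib 3.10.9. Promoters came from RefSeq (GRCh38.p14).

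Members, lists, motifs and tests were chosen with earlier results of these data known. Values by array are given for every called member and, per role, for the uncalled ones with the largest change or highest signal; of the other pathway genes, the 12 called with the smallest p are named. Of the listed genes, 2 pathway genes and 2 markers were not analysed here. Alternatives were other normalizations, pseudocounts of 1 and 64, a signal filter, other probe set choices, eBayes without a trend, the replicate block, spike scalings, replicates 1 and 2 alone and each array left out.

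Replicate numbers came from the sample titles. Deviations from the group means of same-numbered arrays correlated at 0.544, 0.409 and 0.345 over 9887 genes above the median signal. Arrays of the same number thus varied together in part. Over the 42 members alone the same correlations were 0.495, 0.027 and 0.047, and calactin replicate 3 correlated at 0.221 with untreated replicate 2. The reported fit is unpaired, and the replicate block is an alternative to it.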

Additional observations from a re-analysis of the deposited data

How the results depend on the processing

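Of the 17 called members, 4 (WIPI1, ATG4C, ATG4D and BNIP3) were called in all 18 alternatives, 5 were lost in 1 to 3 of them and 8 in more. Under quantile normalization 6 members were called lower and the median of the members was 0.0103. Under hybridisation spike scaling 4 were called lower. Poly-A spike scaling with the replicate block gave 26 higher, 3 lower and a median of 0.45, and replicates 1 and 2 alone gave 1 higher and 3 lower. Leaving out 1 array gave 4 to 6 higher, 7 to 10 lower and a median of -0.13 to -0.07. With the replicate block 9 were higher and 13 lower, 17 of them the calls of the fit without it; the pairing moved no call outside those given above among the members. Pseudocounts of 1 and 64 gave the same 17 calls.

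Of the other pathway genes, 14 were called higher under quantile normalization, 10 under median centring, 11 with the replicate block, 2 under hybridisation spike scaling, 48 under poly-A spike scaling and 1 in replicates 1 and 2 alone. The block gave 13 lower, hybridisation spike scaling 2, poly-A spike scaling 1 and replicates 1 and 2 alone 2. Without 1 array there were 2 to 7 higher and 4 to 8 lower. Over all genes, 1661 were higher under quantile normalization, 557 higher and 1393 lower under hybridisation spike scaling, 11914 and 1074 under poly-A spike scaling, 332 and 1403 in replicates 1 and 2 alone, and 644 to 1015 and 2390 to 3030 without 1 array.

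Signs turned under poly-A spike scaling for ATG7 (0.10), ATG10 (0.049), GABARAPL2 (0.29), CALCOCO2 (0.0777), FUNDC1 (0.19), VMP1 (0.15), WIPI2 (0.25), ATG3 (0.32), ATG4B (0.46), OPTN (0.26), BNIP3L (0.29), TECPR1 (0.16), MTOR (0.0643), PLEKHM1 (0.0575) and TEX264 (0.12). Using shared probe sets last turned ATG7 (0.11), SQSTM1 (-0.0238), WIPI2 (0.28), TAX1BP1 (-0.31) and SEC62 (-0.0533), and the mean of the probe sets turned ATG13 (-0.0556) and TAX1BP1 (-0.12). ATG4B was 0.0401 under quantile normalization. ATG13 was -0.0094 and BECN1 -0.0281 in replicates 1 and 2 alone. Among genes near 0, leaving out 1 array gave -0.066 to 0.0761 for ATG13, -0.0495 to 0.1655 for BECN1 and -0.0223 to 0.05 for TAX1BP1. The scalings differ by construction in the level they hold equal between arrays; which is right was not tested.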
